A study of Homo sapiens with 8 samples.

Results

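The 47 genes described here encode the proteins of blood clotting (coagulation, 19 genes), of clot dissolution (fibrinolysis, 8 genes) and of the complement system (20 genes), among the 15745 named genes of the count table. They were listed by name as factors, receptors and inhibitors of these cascades. The rule uses no measured level, but the list was drawn up with earlier results of these data known. RNA-seq was performed on 8 libraries of wildtype HuH7 cells, an established human hepatoma line, in 2 groups of 4. All cells passed through oxygen-glucose deprivation and reperfusion (OGD/R), with 6 h at 1% oxygen in glucose-free medium and then 6 h of normoxia. During those last 6 h the medium contained DMSO (I/R+DMSO, n = 4) or ginsenoside Rk2, a compound from ginseng, at 20 µM (I/R+Rk2, n = 4), and values given below as with DMSO and with Rk2 are those of these 2 groups. Both groups had OGD/R, so the comparison asks what Rk2 changed after OGD/R and not what OGD/R itself changed. All libraries come from 1 cell line in culture. The labels do not say whether the 4 libraries of a group came from separate cultures, so p-values measure the spread between these libraries, which may be technical.

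Most of these proteins are made by hepatocytes and secreted into plasma, many of them as inactive precursors of serine proteases. Coagulation starts when tissue factor meets factor VII, runs through factor X and prothrombin, and ends in a mesh of fibrin that is cut from fibrinogen. Fibrinolysis dissolves that mesh through plasmin, which is made from plasminogen by its activators. Complement is triggered by antibodies, by sugars on a surface or by spontaneous turnover of C3, and ends in a pore that forms in membranes, while soluble and membrane-bound regulators protect the host's own cells.

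Of the 47 genes, 46 had a row in the count table and 41 had at least 10 counts in at least 4 libraries and were tested. After Rk2, 6 genes were higher and 3 were lower at an adjusted p below 0.05 (edgeR's quasi-likelihood test, Benjamini-Hochberg adjustment over 12910 genes), and 32 did not pass. Those that rose were F7, MASP1, A2M, CD46, CD55 and TFPI, and those that fell were FGA, FGB and PLAUR. The 9 genes are 22% of those tested, against 18.2% of all genes tested, with 11% of all genes higher and 7.24% lower. Past a fold change of 1.5 as well were 2 genes, F7 and PLAUR, against a share of 3.04% among all genes. Libraries of the groups were fully apart in 12 genes, 7 of them higher and 5 lower, against 28.3% of all genes tested. The shares among the 47 genes were near those of all genes. The median log2 fold change (I/R+Rk2 over I/R+DMSO throughout) was -0.04 over the 41 genes and 0 over all genes tested, with 17 values above 0 and 24 below. These are bulk libraries, in which fewer cells that carry a transcript and less of it per cell cannot be told apart.

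Promoters are shown for 5 genes, the 3 fibrinogen chains, of which FGA and FGB fell and the neighbouring FGG did not pass the test, and F7 and PLAUR, which had the largest rise and fall of the 9 genes that passed. Each sequence is from RefSeq (GRCh38.p14), in the direction of transcription, from 250 bases before the gene's start to 50 bases after it. Capitals mark matches to the motifs named after the sequences.
FGA (chr4:154590693-154590992, minus strand): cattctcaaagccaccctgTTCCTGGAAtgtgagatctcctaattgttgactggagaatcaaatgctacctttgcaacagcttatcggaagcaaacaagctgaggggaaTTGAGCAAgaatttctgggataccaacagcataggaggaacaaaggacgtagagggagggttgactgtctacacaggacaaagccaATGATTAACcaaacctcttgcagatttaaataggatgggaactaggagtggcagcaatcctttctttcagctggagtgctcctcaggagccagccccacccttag
FGB (chr4:154562730-154563029, plus strand): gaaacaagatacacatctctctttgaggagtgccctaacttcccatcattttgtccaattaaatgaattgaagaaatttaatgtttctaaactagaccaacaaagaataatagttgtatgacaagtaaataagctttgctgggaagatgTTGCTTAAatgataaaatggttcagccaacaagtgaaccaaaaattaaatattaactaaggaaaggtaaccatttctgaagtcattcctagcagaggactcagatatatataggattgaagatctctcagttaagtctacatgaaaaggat
FGG (chr4:154612607-154612906, minus strand): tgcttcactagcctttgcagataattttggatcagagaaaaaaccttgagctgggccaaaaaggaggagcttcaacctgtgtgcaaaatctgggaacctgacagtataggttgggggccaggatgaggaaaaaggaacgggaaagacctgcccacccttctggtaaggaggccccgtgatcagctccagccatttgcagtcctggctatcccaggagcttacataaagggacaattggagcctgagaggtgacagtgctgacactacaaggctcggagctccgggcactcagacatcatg
F7 (chr13:113105541-113105840, plus strand): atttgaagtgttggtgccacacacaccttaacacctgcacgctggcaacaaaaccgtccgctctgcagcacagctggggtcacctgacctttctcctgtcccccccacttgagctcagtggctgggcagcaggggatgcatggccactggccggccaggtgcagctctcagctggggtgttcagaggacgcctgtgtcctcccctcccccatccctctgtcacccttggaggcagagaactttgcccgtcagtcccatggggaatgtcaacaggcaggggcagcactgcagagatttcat
PLAUR (chr19:43670120-43670419, minus strand): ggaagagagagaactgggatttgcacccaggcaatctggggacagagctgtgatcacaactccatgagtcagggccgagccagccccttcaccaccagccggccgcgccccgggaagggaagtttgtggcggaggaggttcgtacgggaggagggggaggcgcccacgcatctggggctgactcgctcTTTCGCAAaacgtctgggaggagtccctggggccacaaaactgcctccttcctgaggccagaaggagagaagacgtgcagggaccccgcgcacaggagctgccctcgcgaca

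Letter patterns of 5 factors known from liver and stress transcription were searched on both strands. They were GTTAATNAT for HNF1, CAAAGTCCA for HNF4, TTGCNNAA for C/EBP, TTCNNNGAA for STAT factors and TGATGNAA for the composite site of ATF4 and C/EBP. The STAT pattern reads the same on both strands and was counted once, and in the windows shown no match overlapped another. The FGA window held a match to the HNF1 pattern starting 55 bases before the start, a C/EBP match at 141 bases and a STAT match at 231 bases. The FGB window held a C/EBP match 101 bases before the start, and the PLAUR window held one at 62 bases. The FGG and F7 windows held none of the 5 patterns, which says only that these letters are not in these 300 bases. Among all 35116 promoter windows of this length, 0.792% held the HNF1 pattern, 0.384% the HNF4 pattern, 10.5% the C/EBP pattern, 7.66% the STAT pattern and 3.62% the composite.

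Promoter windows were matched for 38 of the 47 genes, and those of SERPINC1, PLAT, SERPINF2, A2M, C1S, C3, C8G, SERPING1 and CLU were not. Some genes have several starts, so the 38 genes have 52 windows, FGB a second with the same C/EBP match 132 bases before its start. A gene was counted if any of its windows held the pattern, whereas the shares above are per window, so the counts cannot be set directly against them. The HNF1 pattern was in 5 of the 38, which were FGA, F13B, PLG, C5 and C4BPA. The C/EBP pattern was in 12 of the 38 and the STAT pattern in 13, while HNF4 was matched in F10 alone and the composite in C4BPA alone. Of the 5 genes with the HNF1 pattern, FGA was the one that passed the test for a change with Rk2. A match is a description of letters and not evidence of binding.

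The hepatocyte identity of the cells was checked with 12 markers, all of which were tested, with summed FPKM of 5100 to 5680 with DMSO and 5530 to 5640 with Rk2. AFP had the largest part of this sum, with means of 2370 FPKM with DMSO and 2410 with Rk2, followed by ALB with 998 and 1040. Only APOB of these 12 was called, with a log2 fold change of 0.61 (edgeR adjusted p = 0.0124). Of the markers of other cells that make clotting or complement proteins, 5 of 7 endothelial genes were at 0 in all libraries (CDH5, KDR, TEK, ERG and VWF), as were PTPRC, CD163 and TYROBP of 8 leukocyte genes, and PF4, PPBP and GP9 of 5 platelet genes. The leukocyte list summed to 360 to 401 FPKM with DMSO and 353 to 405 with Rk2, of which LYZ alone made up 90.8 to 93.1%. One of its genes, CD14, was lower after Rk2, from a mean of 0.348 to 0.14 FPKM (edgeR adjusted p = 0.043). Another, CD68, had means of 30.7 FPKM with DMSO and 28.7 FPKM with Rk2 and did not pass (edgeR adjusted p = 0.634). The stellate cell list, with DCN at 0, summed to 5.74 to 7.17 FPKM with DMSO and 5.56 to 6.96 with Rk2, and the endothelial and platelet lists to at most 2.1 and 0.19 FPKM in any library. Library totals were 18428485 to 21447045 counts with DMSO and 16374082 to 30310479 with Rk2, and the 46 genes with counts took 0.531 to 0.612% of them.

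Levels of different genes were compared in FPKM, which is scaled to transcript length. The plot of FPKM by gene shows CLU, C3 and A2M at the top, with means over the 8 libraries of 333, 323 and 260 FPKM. VTN at 176, FGB at 155 and FGA at 103 FPKM complete the 6 genes above 100. CLU encodes clusterin, a chaperone that also blocks the terminal complement pore, C3 is the protein on which all complement routes meet, and A2M encodes a broad inhibitor that traps proteases. CLU and C3 cannot be ordered, since CLU ranged from 230 to 432 FPKM over the libraries and C3 from 286 to 340. FGG at 56.1 and MASP1 at 55.5 FPKM cannot be ordered either, since their libraries overlapped within each group. F2 at 42.9 and TFPI at 42.1 FPKM were close over both groups, but their order changed with the group. With DMSO, F2 was above TFPI in each library, with means of 43.3 and 39.3 FPKM. With Rk2, every TFPI library (43.3 to 46.3 FPKM) was above every F2 library (41.9 to 43.2 FPKM). At the other end, 12 genes had a mean below 1 FPKM, among them F9, listed at 0 FPKM in every library.

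**Figure D1:**
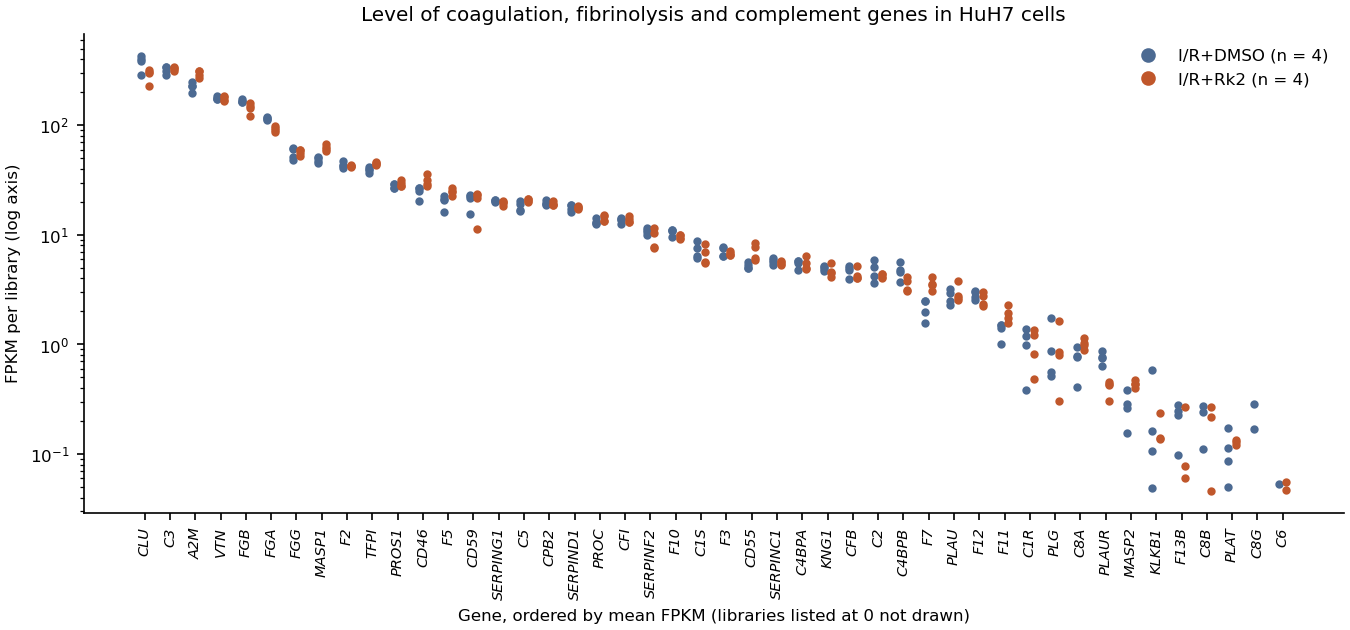
FPKM of each gene in each library on a log axis, ordered by the mean over 8 libraries, with I/R+DMSO and I/R+Rk2 side by side (n = 4 each); F9 and single libraries listed at 0 are not drawn. Genes that share a cascade lie far apart, from CLU and C3 with means of 333 and 323 FPKM down to C6 with 0.0196 FPKM.

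The extrinsic and common coagulation pathway had 5 tested genes, of which F7 rose and none fell. F7 (ENSG00000057593, chr13:113105788-113120681, plus strand) encodes factor VII, the partner of tissue factor that starts coagulation. Its normalized counts (CPM, scaled to the library total with TMM factors) in replicates 1 to 4 were 7.7, 6.5, 6.72 and 5.63 with DMSO and 10.3, 10.2, 11 and 11.7 with Rk2. Every Rk2 library was above every DMSO library. The mean rose from 6.64 ± 0.852 to 10.8 ± 0.718 CPM (± SD, 4 libraries each), a 1.63-fold change with a log2 value of 0.70 (SE 0.106, edgeR adjusted p = 0.00447). Gene positions here and below are those of GENCODE v29 on hg38. F7 passed in all 21 alternative settings, with log2 fold changes of 0.54 to 0.78.

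The gene of factor X, F10, lies 2132 bases downstream of F7 on chromosome 13 and is read in the same direction. Factor X is the protease that factor VII activates. F10 had 16.3 to 19.7 CPM with DMSO and 15.6 to 17.3 CPM with Rk2, a log2 difference of -0.16 that did not pass (edgeR adjusted p = 0.172). The ratio of F7 to F10 counts was 0.391, 0.349, 0.35 and 0.346 with DMSO and 0.592, 0.603, 0.708 and 0.734 with Rk2. This pair, like the other ratios given here, was chosen after the values were seen and is a description without a test. GENCODE v29 lists a gene on the opposite strand that overlaps F10, and the strandedness of the libraries is not given in the sources used here.

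The other genes of this pathway did not pass. F2, the gene of prothrombin, had 100 ± 5.74 and 97.2 ± 1.11 CPM, a log2 difference of -0.04 (SE 0.0471). F5 encodes factor V, the cofactor of factor X, and had 135 to 184 CPM with DMSO and 181 to 213 CPM with Rk2, so the groups overlapped. Its log2 difference was 0.24 (edgeR adjusted p = 0.118) and was 0.05 to 0.31 over all alternatives. F5 reached the threshold in 1 of 21, with the replicate number as a block (adjusted p = 0.0479). With a correction for gene length the difference was 0.05 (adjusted p = 0.611). F3, the gene of tissue factor, had a log2 difference of -0.11 (edgeR adjusted p = 0.437).

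In the intrinsic pathway and contact system, which start clotting on charged surfaces, none of 3 tested genes passed in either direction. KNG1 had the highest level of these, and it encodes kininogen, the source of bradykinin. It had 12.7, 13.7, 12.2 and 11.4 CPM with DMSO and 11.4, 13.4, 11.4 and 13.2 CPM with Rk2, which overlap throughout. Its log2 difference was -0.02 (SE 0.0899, edgeR adjusted p = 0.905). F12, the gene of the contact protease factor XII, had 6.23 to 6.71 CPM with DMSO and 4.9 to 6.15 CPM with Rk2. These groups did not overlap, yet the log2 difference of -0.23 did not pass (edgeR adjusted p = 0.146), and exons of GRK6 overlap F12 on the opposite strand. F11, the gene of factor XI, had a log2 difference of 0.45 (edgeR adjusted p = 0.0656) and passed in 2 of 20 alternatives, the gene length correction (adjusted p = 0.0458) and the fit without I/R+DMSO replicate 2 (adjusted p = 0.047). KLKB1, which encodes prekallikrein, had 0 to 21 counts per library and was not tested.

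The fibrinogen chains gave 2 of the 3 falls. Among all genes tested 7.24% were lower, and 3 chains are too few to set against that share. FGA, FGB and FGG encode the alpha, beta and gamma chains, which join in equal numbers into the secreted protein, and they lie within 50 kb on chromosome 4 in the order FGB (chr4:154562956-154571086, plus strand), FGA (chr4:154583126-154590766, minus strand) and FGG (chr4:154604134-154612967, minus strand). FGA had 337, 326, 313 and 314 CPM with DMSO and 270, 263, 248 and 237 CPM with Rk2. FGB had 372, 344, 338 and 348 CPM with DMSO and 323, 248, 305 and 286 CPM with Rk2. FGG had 107, 97.3, 95.8 and 93.3 CPM with DMSO and 102, 110, 101 and 104 CPM with Rk2. For the alpha and beta chains every Rk2 library was below every DMSO library, whereas the gamma chain libraries overlapped.

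FGA fell from 323 ± 11 to 254 ± 14.9 CPM (± SD, 4 libraries each), a log2 fold change of -0.34 (SE 0.0499, edgeR adjusted p = 0.00386). It passed in all 21 alternatives, between -0.37 and -0.31. FGB fell from 351 ± 14.7 to 290 ± 31.9 CPM (± SD, 4 libraries each), a log2 fold change of -0.27 (SE 0.0783) close to the threshold (edgeR adjusted p = 0.0462). The FGB call held in 6 of 21 alternatives and, among the fits that left out 1 library, only without I/R+Rk2 replicate 1 (adjusted p = 0.0326, against 0.0593 to 0.106 for the other 7). FGG had a log2 difference of 0.08 (SE 0.0529, edgeR adjusted p = 0.305), and with a correction for gene length it was 0.16 and passed (adjusted p = 0.0253).

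The ratio of FGA to FGG counts was 3.15, 3.35, 3.27 and 3.37 with DMSO and 2.65, 2.4, 2.44 and 2.28 with Rk2. These groups did not overlap, and the mean log2 ratio differed by -0.43, or by -0.37 from FPKM. The ratio of FGB to FGG counts was 3.48, 3.54, 3.53 and 3.73 with DMSO and 3.18, 2.26, 3 and 2.75 with Rk2. It was lower by 0.36 as a mean log2 ratio from counts, while the FPKM ratios of the groups overlapped with a difference of -0.26. The ratio of FGA to FGB overlapped between the groups on both scales, with I/R+Rk2 replicate 2 at 1.06 from counts and the other libraries at 0.813 to 0.947. In FPKM summed over the 3 chains, FGG made up 16.4 ± 1.67% with DMSO and 19.5 ± 1.26% with Rk2 (± SD, 4 libraries each).

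**Figure D2:**
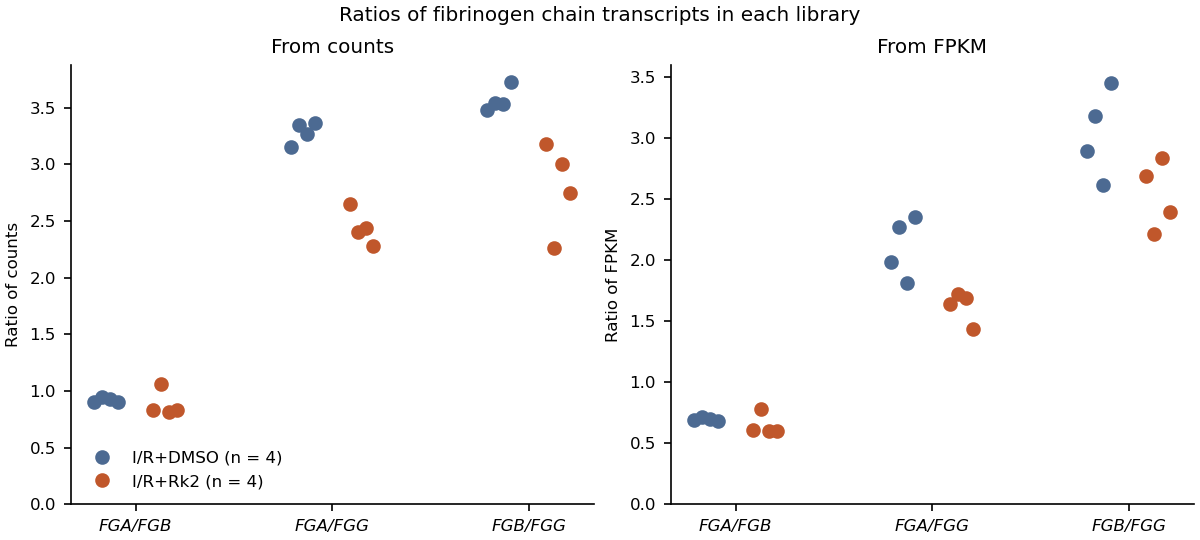
Ratios of fibrinogen chain transcripts in each library, from counts (left) and FPKM (right), with I/R+DMSO and I/R+Rk2 side by side (n = 4 each) and axes that start at 0. The ratio of FGA to FGG lies at 3.15 to 3.37 with DMSO and 2.28 to 2.65 with Rk2 from counts, and the ratio of FGA to FGB overlaps.

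F13B, the gene of the carrier subunit of the enzyme that crosslinks fibrin, had 0 to 22 counts per library. Its log2 difference of -0.90 had an SE of 0.688 and did not pass (edgeR adjusted p = 0.397), so at this depth no change could be detected.

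Among the 5 anticoagulants, TFPI rose and none fell. TFPI (ENSG00000003436, chr2:187464230-187565760, minus strand) encodes the inhibitor of the complex of tissue factor and factor VII, so it acts on the same step as F7. It had 111, 107, 102 and 112 CPM with DMSO and 119, 123, 119 and 126 CPM with Rk2. The groups did not overlap, and the mean went from 108 ± 4.17 to 122 ± 3.39 CPM (± SD, 4 libraries each). The log2 fold change of 0.17 (SE 0.042, edgeR adjusted p = 0.0257) was the smallest of the 9 genes that passed. TFPI passed in 13 of 21 alternatives, and its adjusted p rose to between 0.0508 and 0.0699 without I/R+DMSO replicate 2 or 3 or without I/R+Rk2 replicate 2, 3 or 4. A gene on the opposite strand overlaps TFPI in GENCODE v29.

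The remaining anticoagulants were SERPINC1 (antithrombin), SERPIND1 (heparin cofactor), PROC (protein C) and PROS1 (its cofactor protein S). Their log2 differences were -0.08, -0.04, 0.07 and -0.02, and none passed (adjusted p of 0.43 to 0.751, edgeR). PROS1, with 105 ± 3.69 and 104 ± 3.48 CPM, was the most abundant of them.

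In fibrinolysis, PLAUR fell among the 3 tested genes of plasminogen, its activators and their receptor. PLAUR (ENSG00000011422, chr19:43646095-43670547, minus strand) encodes the urokinase receptor, which holds the activator urokinase on the cell surface. Its transcript was rare, with 23, 28, 26 and 31 counts with DMSO and 24, 9, 12 and 9 counts with Rk2. Scaled for depth these were 1.22, 1.32, 1.43 and 1.45 CPM with DMSO and 0.786, 0.477, 0.726 and 0.455 CPM with Rk2. The groups did not overlap, and the I/R+Rk2 library with 24 counts was the most deeply sequenced of the 8.

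PLAUR fell from 1.36 ± 0.108 to 0.611 ± 0.17 CPM (± SD, 4 libraries each), a 2.18-fold fall with a log2 value of -1.13 (SE 0.225, edgeR adjusted p = 0.0127). It was the largest change among the 9 genes that passed. PLAUR met the count filter through the DMSO group, in which every library reached 10 counts. The I/R+Rk2 libraries of replicates 2 and 4, with 9 counts each, were below that cut, so the Rk2 group alone would not have met it. Without a count filter the log2 value was -1.13 as well (edgeR adjusted p = 0.0189). PLAUR was called in 18 of the 19 alternatives that gave it an adjusted p, and with the gene length correction and replicate block together it did not pass (adjusted p = 0.0684). DESeq2 gave it no adjusted p, and it was not tested with at least 50 counts in every library. On the log2(FPKM + 1) scale the change was -0.32, since a pseudocount of 1 shrinks changes at such low levels.

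PLAU, the gene of urokinase itself, had 7.62 ± 0.496 and 7.72 ± 0.308 CPM, a log2 difference of 0.02 (SE 0.077, edgeR adjusted p = 0.885). C10orf55 overlaps PLAU on the opposite strand. PLG, the gene of plasminogen, was low at 2.26 ± 0.676 and 2.23 ± 0.95 CPM, with a log2 difference of -0.03 and an SE of 0.353. PLAT, which encodes tissue plasminogen activator, had 0 to 12 counts per library and was not tested.

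Of 4 inhibitors of fibrinolysis and related proteins, A2M rose and none fell. A2M (ENSG00000175899, chr12:9067664-9116229, minus strand) encodes alpha-2-macroglobulin, which traps plasmin and many other proteases. It had 1030, 1180, 1250 and 1200 CPM with DMSO and 1360, 1450, 1490 and 1540 CPM with Rk2. The groups did not overlap, and the mean rose from 1160 ± 95.1 to 1460 ± 74.8 CPM (± SD, 4 libraries each). The log2 fold change was 0.33 (SE 0.0663, edgeR adjusted p = 0.0127), and it passed in all 21 alternatives, between 0.22 and 0.38. In FPKM the mean went from 226 ± 20.8 to 293 ± 20.4, which was the largest rise in absolute level among the genes that passed. A2M-AS1 lies on the opposite strand.

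The other inhibitors did not pass. SERPINF2, the gene of antiplasmin, had a log2 difference of -0.31 with an SE of 0.227. Its I/R+Rk2 libraries fell into 16 and 16.1 CPM in replicates 1 and 2 and 30.1 and 27.5 CPM in replicates 3 and 4, against 23.3 to 29.7 CPM with DMSO. CPB2 (a carboxypeptidase that makes fibrin harder to dissolve) and VTN (vitronectin, an adhesive plasma protein) both had log2 differences of -0.05 (adjusted p of 0.565 and 0.516, edgeR).

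**Figure D3:**
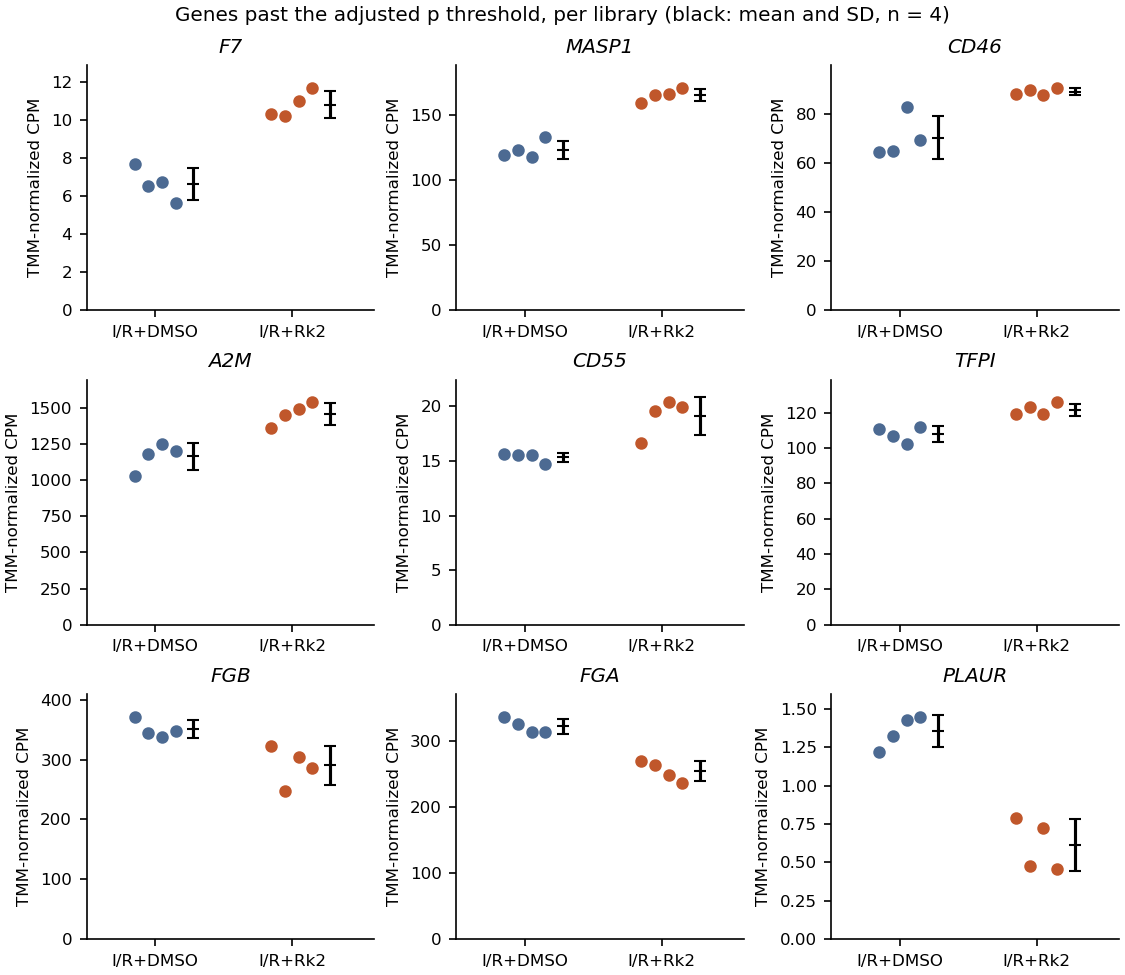
Normalized CPM of the 9 genes with an adjusted p below 0.05, 1 point per library, with the mean and SD (n = 4) in black and axes that start at 0. In each gene the libraries of I/R+DMSO and I/R+Rk2 do not overlap, and the scales run from means of 0.611 and 1.36 CPM for PLAUR to 1160 and 1460 CPM for A2M.

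In the classical and lectin pathways of complement, MASP1 rose among 5 tested genes and none fell. MASP1 (ENSG00000127241, chr3:187217285-187292022, minus strand) encodes a protease of the lectin pathway, which binds sugars on surfaces, and has a role in clotting as well. It had 119, 123, 118 and 133 CPM with DMSO and 159, 165, 166 and 171 CPM with Rk2. The groups were well apart, with means of 123 ± 7.14 and 165 ± 4.97 CPM (± SD, 4 libraries each). The log2 fold change of 0.42 (SE 0.0492, edgeR adjusted p = 0.0016) had the smallest adjusted p of the 41 genes, and it passed in all 21 alternatives, between 0.35 and 0.46. AC007920.2 lies on the opposite strand of MASP1.

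MASP2, the lectin pathway protease that cleaves C4 and C2, had 8 to 24 counts per library with DMSO and 21 to 36 with Rk2. Its CPM did not overlap between the groups, but the log2 difference of 0.65 (SE 0.261) did not pass (edgeR adjusted p = 0.119). C1R and C1S, the proteases of the classical pathway, and C2, which forms the C3-cleaving enzyme, had log2 differences of -0.23, -0.21 and 0.01, and none passed. Same-strand overlaps with C1RL, EMG1 and CFB make the reads of C1R, C1S and C2 less certain. In all, 9 of the 47 genes overlap another gene on the same strand, the others being KLKB1, VTN, CFB, CFI, CLU and CD59.

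Neither gene of C3 and the alternative pathway passed. C3 had 1480, 1650, 1740 and 1690 CPM with DMSO and 1560, 1660, 1680 and 1720 CPM with Rk2. The groups lay over each other, with a log2 difference of 0.01 (SE 0.0567, edgeR adjusted p = 0.914). CFB, the gene of factor B, which pairs with C3 in the amplifying enzyme, had 9.53 ± 1.04 and 10.1 ± 0.49 CPM and a log2 difference of 0.08. The end of C2 overlaps the start of CFB by 23 bases on chromosome 6.

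The terminal components build the membrane pore, and only C5 and C8A of the 5 genes could be tested. C5 had 78.7, 85.8, 82.8 and 96.2 CPM with DMSO and 96.3, 97.2, 95.5 and 98.3 CPM with Rk2. The groups overlapped because of I/R+DMSO replicate 4. The log2 difference of 0.17 (SE 0.0618) did not pass (edgeR adjusted p = 0.0864). Of 21 alternatives, with values of 0.08 to 0.23, only the fit without that library passed (0.23, adjusted p = 0.0153). C8A had 2.09 ± 0.649 and 2.84 ± 0.295 CPM, a log2 difference of 0.44 (edgeR adjusted p = 0.226). C6, C8B and C8G were below the filter, with at most 5, 11 and 4 counts in any library.

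All 5 soluble regulators had log2 differences below 0, from -0.35 to -0.09, and none passed. Of all 12910 genes tested, 6500 had values below 0, and a shared direction of the 5 was not tested. Over the alternatives CFI ranged from -0.17 to 0.02 and C4BPA from -0.14 to 0, while the others stayed below 0. CLU was the most abundant, with 509, 434, 462 and 440 CPM with DMSO and 407, 421, 378 and 403 CPM with Rk2. Every Rk2 library was below every DMSO library, and the mean was 461 ± 33.8 with DMSO and 402 ± 17.8 CPM with Rk2 (± SD, 4 libraries each). The log2 difference of -0.20 (SE 0.0589) missed the threshold narrowly (edgeR adjusted p = 0.0518) and was -0.38 to -0.08 over the alternatives. It passed in 4 of 21. These were DESeq2 (adjusted p = 0.0155), the upper-quartile or RLE scaling (adjusted p of 0.0321 and 0.0491) and at least 50 counts in every library (adjusted p = 0.0431).

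The other 4 were SERPING1 (the C1 inhibitor, which also blocks contact proteases), C4BPA and C4BPB (the chains of the C4b-binding protein) and CFI (the protease that destroys C3b). Their log2 differences were -0.15, -0.09, -0.35 and -0.12, and their adjusted p-values ranged from 0.13 to 0.538 (edgeR). C4BPB, at 6 ± 0.727 and 4.72 ± 0.783 CPM, was the least abundant of the 5.

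The membrane regulators gave 2 rises among 3 tested genes. Among all genes tested 11% were higher, and 3 genes are too few to set against that share. CD46 is the cofactor with which factor I destroys C3b on the cell's own surface, and CD55 breaks up the enzymes that cleave C3. CD46 had 64.4, 64.9, 83.1 and 69.5 CPM with DMSO and 88.4, 89.9, 87.7 and 90.9 CPM with Rk2. CD55 had 15.6, 15.5, 15.5 and 14.7 CPM with DMSO and 16.6, 19.6, 20.4 and 19.9 CPM with Rk2. In both genes the groups did not overlap, with I/R+DMSO replicate 3 closest to the Rk2 libraries for CD46 and I/R+Rk2 replicate 1 closest to the DMSO libraries for CD55.

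CD46 rose from 70.5 ± 8.73 to 89.2 ± 1.43 CPM (± SD, 4 libraries each), a log2 fold change of 0.34 (SE 0.0813, edgeR adjusted p = 0.0244). CD55 rose from 15.3 ± 0.433 to 19.1 ± 1.7 CPM (± SD, 4 libraries each), a log2 fold change of 0.32 (SE 0.0764, edgeR adjusted p = 0.0255). Both kept their direction in every alternative, and the CD46 call held in 12 of 21 and the CD55 call in 10 of 21. CD46 did not pass without I/R+DMSO replicate 2 or without any 1 of the I/R+Rk2 replicates (adjusted p of 0.0528 to 0.0677), nor CD55 when replicate 2, 3 or 4 of either group was left out (adjusted p of 0.0529 to 0.0713). With the replicate block CD55 did not pass either (adjusted p = 0.0639).

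CD46 (chr1:207752057-207795513) and CD55 (chr1:207321376-207386804), both on the plus strand, share a stretch of 707 kb on chromosome 1 with C4BPB and C4BPA, whose log2 differences were below 0. The ratio of CD46 to C4BPA counts was 4.67 to 5.98 with DMSO and 6.09 to 8.08 with Rk2, and that of CD55 to C4BPA was 0.987 to 1.19 with DMSO and 1.21 to 1.76 with Rk2. Neither ratio overlapped between the groups in counts, and in FPKM that of CD55 did.

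CD59, the membrane protein that stops the terminal pore, had a log2 difference of -0.41 with an SE of 0.38 and did not pass (edgeR adjusted p = 0.488). It had 20.8, 43.8, 29.8 and 44.5 CPM with DMSO and 18.5, 47.3, 21 and 17.9 CPM with Rk2. In FPKM the same libraries had 22.5, 21.7, 15.5 and 23.3 with DMSO and 22.9, 23.5, 11.3 and 21.6 with Rk2, so the deposited tables differ on which libraries were low. The value leans on 1 library, since without I/R+Rk2 replicate 2 it was -0.86 (edgeR adjusted p = 0.0847), and without each of the others it lay between -0.59 and -0.27. AL049629.2 overlaps CD59 on the same strand, and its part in this difference was not tested.

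**Figure D4:**
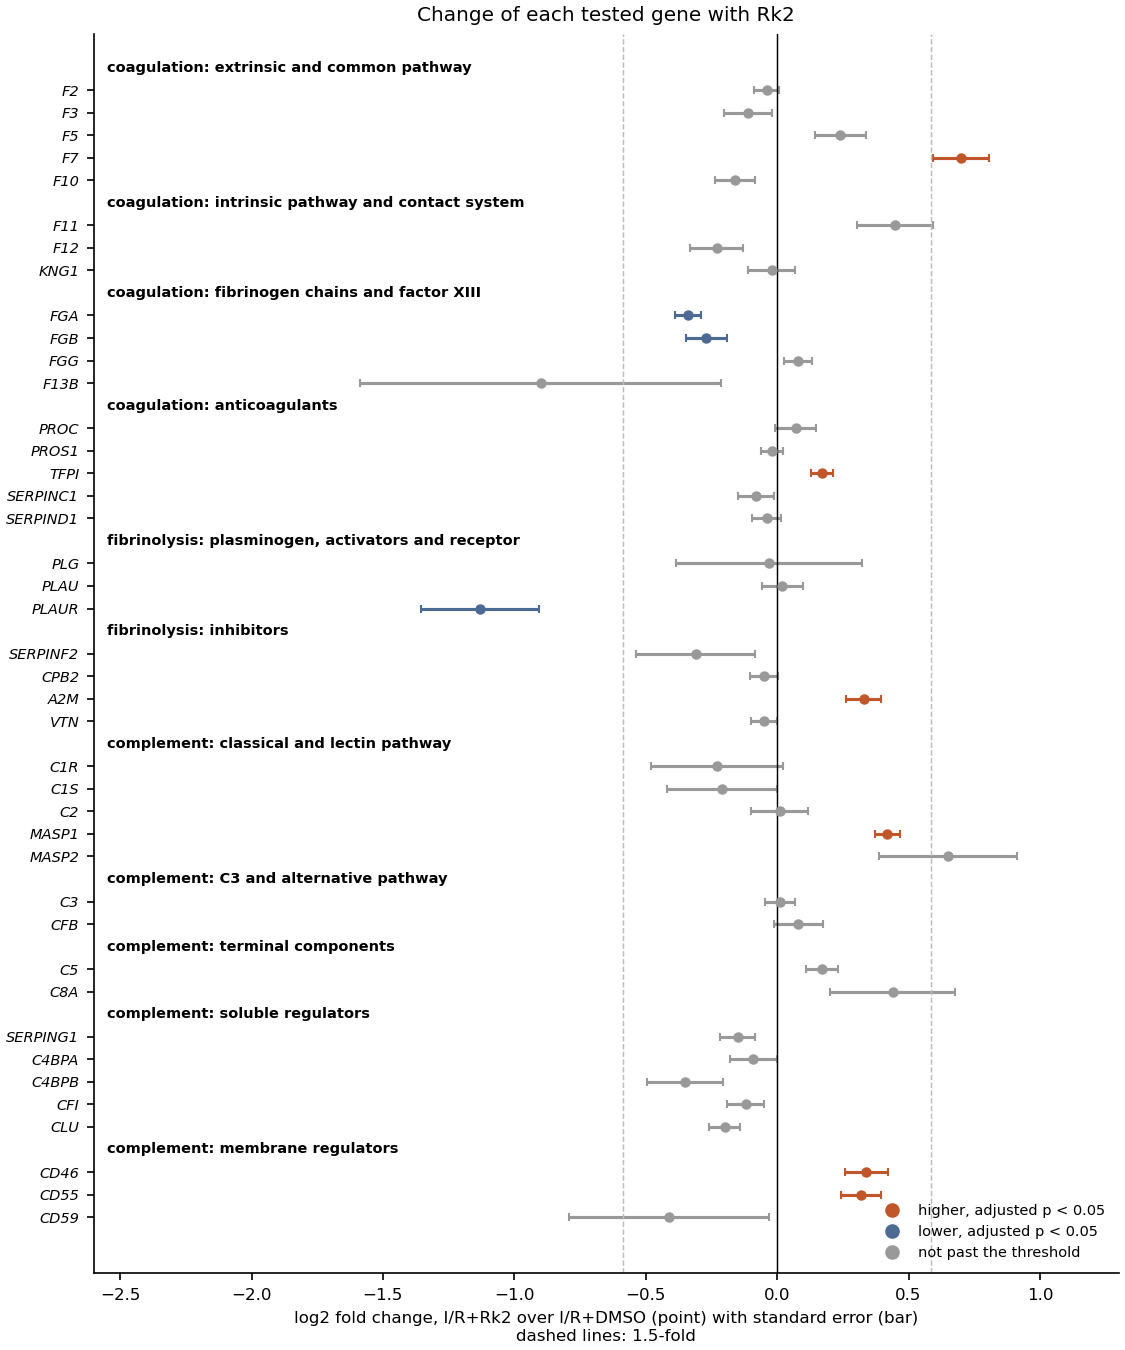
Log2 fold change (point) and standard error (bar) of the 41 tested genes, I/R+Rk2 over I/R+DMSO, grouped by role, with dashed lines at a 1.5-fold change in each direction. The 6 genes that rose and 3 that fell are coloured, F7 at 0.70 and PLAUR at -1.13 lie past the dashed lines, and the other 32 are grey.

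By cascade, coagulation had 2 genes higher and 2 lower of 17 tested, fibrinolysis 1 higher and 1 lower of 7, and complement 3 higher and 0 lower of 17. These are 23.5%, 28.6% and 17.6% called, against 18.2% of all genes tested (11% higher and 7.24% lower). The medians of the log2 fold change were -0.04, -0.05 and 0.01. At an unadjusted p below 0.05 (edgeR), 2 complement genes were lower, and 34.5% of all genes tested reached that p in either direction. DESeq2 called 1 complement gene lower, CLU. Whether the cascades differ from each other was not tested. FPKM gave fewer calls, 3 higher and 2 lower (F7, MASP1, A2M, FGA and PLAUR), with 9.48% of the 11852 genes of a mean of at least 0.5 FPKM called (limma, pseudocount 1). The plot of changes by setting shows the same 5 genes and FGB, TFPI, CD46 and CD55 under every alternative that gave them an adjusted p, which for PLAUR were 19 of 21.

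**Figure D5:**
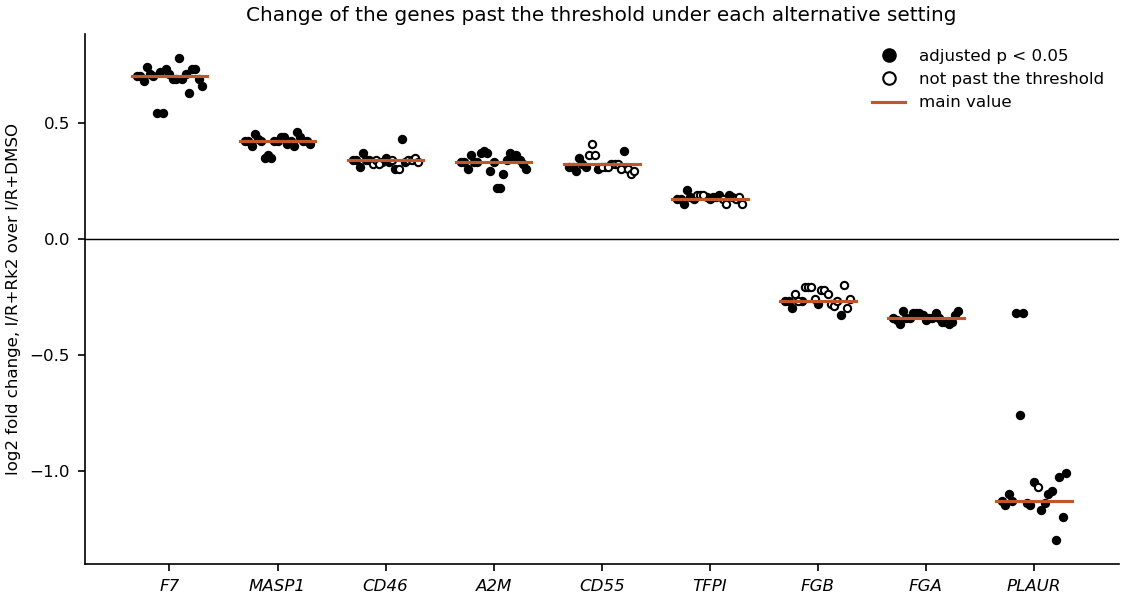
Log2 fold change of the 9 genes that passed, with 1 point for each alternative that gave the gene an adjusted p. Points are filled where the adjusted p was below 0.05 and open otherwise, and a line marks the main value. F7, MASP1, A2M and FGA are filled throughout, and FGB is open in 15 of its 21 settings.

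A further 76 genes of the same cascades were listed, of which 36 were tested. Of these, 5 were higher and 5 lower, 27.8% of those tested against 18.2% of all genes (11% higher and 7.24% lower), with a median log2 fold change of -0.01. They include 7 genes for the vitamin K-dependent modification and the secretion of clotting factors, of which LMAN1 and MCFD2 rose and none fell. LMAN1 and MCFD2 form the receptor that carries factors V and VIII out of the endoplasmic reticulum. LMAN1 went from 207 ± 21.8 to 301 ± 2.98 CPM, a log2 fold change of 0.54 (edgeR adjusted p = 0.00228), and MCFD2 from 143 ± 5.68 to 181 ± 1.45 CPM, a log2 fold change of 0.35 (edgeR adjusted p = 0.00125). GGCX, which carboxylates the vitamin K-dependent factors, did not pass at 0.06.

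Of 10 other coagulation genes tested, F2RL2, a thrombin receptor, rose by 0.33 on the log2 scale (edgeR adjusted p = 0.00521), and TFPI2, a protease inhibitor related to TFPI, fell by 0.61 (edgeR adjusted p = 0.00821). The change of TFPI2 was opposite in sign to that of TFPI. Of 7 other fibrinolysis genes, 2 fell and none rose. They were ANXA2 at -0.29 (edgeR adjusted p = 0.0189) and S100A10 at -0.33 (edgeR adjusted p = 0.0199), which together form a surface receptor for plasminogen and its tissue activator.

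Of 12 other complement genes tested, 2 rose and 2 fell. MBL2, the sugar-binding lectin that carries the MASP proteases, rose from 9.47 ± 1.28 to 14.4 ± 1.59 CPM, a log2 fold change of 0.60 (edgeR adjusted p = 0.0129). CPN2, a subunit of the carboxypeptidase that inactivates the complement peptides C3a and C5a, rose by 0.41 on the log2 scale (edgeR adjusted p = 0.00603). C1QBP, a mitochondrial protein that can bind C1q, had a log2 fold change of -0.27 (edgeR adjusted p = 0.00727) and C1RL, a protease related to C1R, one of -0.32 (edgeR adjusted p = 0.00604). C1QBP and C1RL overlap other genes on the same strand, C1RL with C1R itself.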

How the data were processed

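RNA-seq of HuH7 cells was analysed. Libraries were made with an MGIEasy kit from 250 ng of total RNA. The submitters' processing notes name FastQC 0.11.5, HISAT2 2.2.1, StringTie 1.3.3 and build hg38. The annotation, counting tool and strandedness are not given in the sources used here. The deposited tables hold whole-number counts, not normalized, of 15767 genes, and FPKM, which the authors scaled to transcript length and library size, of 19799 genes. F9 was in the FPKM table only. Symbols turned into dates (22, with 0.111% of counts) were left out of the tests.

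The 12910 genes that reached 10 counts in 4 or more libraries were scaled with TMM and tested with edgeR 4.0.16 (robust quasi-likelihood, R 4.3.3) with group as the sole term, adjusted by Benjamini-Hochberg over all genes tested. A gene passed at an adjusted p below 0.05. The study names DESeq2, used here as an alternative (1.42.0), with limma 3.58.1. The standard error is the log2 fold change divided by the square root of the F statistic and is approximate. The biological coefficient of variation was 17.1%. The fit was tested on simulated data. Coordinates and overlaps of genes come from GENCODE v29 (hg38) and promoters from RefSeq tables.

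The members and gene lists were chosen with earlier results of these data known. Every member is accounted for, with values in every library for those that passed and, in a subgroup with none, for the one with the highest mean FPKM. Of other pathway genes, those that passed were named, up to 5 per list and direction, and GGCX was named after its values were seen. Some genes on these lists are not reported here. Alternatives were other scalings (RLE, upper-quartile, library size only), no filter or 50 counts in every library, limma on FPKM with a pseudocount of 1 or 0.1 and a mean FPKM of at least 0.5 or unfiltered, voom with sample weights, a gene length correction (loess, span 0.5, on lengths implied by counts and FPKM), a replicate block and leaving out each library. The ratios of neighbouring genes were added after seeing the data.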

Additional observations from a re-analysis of the deposited data

Results flagged for a closer look

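For each member, the libraries of each group were checked for a value far from the other 3, which gave 2 cases in 82 groups, where about 1 in 20 groups is flagged by chance. CD55 in I/R+DMSO replicate 4 was at 14.7 CPM, with the other 3 libraries at 15.5 to 15.6 CPM. CD59 in I/R+Rk2 replicate 2 was at 47.3 CPM, with the others at 17.9 to 21 CPM, whereas its FPKM there, 23.5, was near the 22.9 and 21.6 of replicates 1 and 4.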

How the results depend on the processing

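F7, MASP1, A2M and FGA passed in all 21 alternatives, and no called gene changed sign. With limma on FPKM, under either pseudocount and with or without the filter, 3 members were higher and 2 lower. Among them, 1 coagulation gene was higher, 1 lower and 1 complement gene higher. These fits called 6.17 to 9.48% of the genes they tested. Coagulation genes called lower numbered 1 (FGA) also with library size only, without a count filter, with voom weights and with the gene length correction. That correction gave 4 coagulation genes higher (F7, TFPI, F11 and FGG). Across all genes tested, which are not independent, the log2 fold change rose with implied gene length (Spearman's rho 0.388). No fibrinolysis gene (0) was lower with DESeq2, where PLAUR was given no adjusted p, or with at least 50 counts in every library, where PLAUR was not tested. DESeq2, RLE, upper-quartile scaling and at least 50 counts each called 1 complement gene lower, CLU, against 0.

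With the replicate block 6 members were higher and 3 lower, with F5 called in place of CD55, and 1815 genes were called against 2352. With the gene length correction and replicate block together 4 were higher and 1 lower, and 11.4% of all genes tested were called. That left 1 coagulation gene lower, 0 fibrinolysis genes lower and 1 complement gene higher. Deviations of same-numbered libraries correlated at 0.0168 to 0.0991, and 4 of 8 libraries correlated best with their own number. These values do not settle whether the numbers pair the samples. The main fit had group as the sole term, and the replicate block is given as an alternative.

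Leaving out 1 library gave 3 to 6 members higher and 2 to 3 lower. These fits called 10.1 to 17.9% of all genes tested, against 18.2% in the main fit. Coagulation genes higher ranged from 1 to 2, lower from 1 to 2, and complement genes higher from 1 to 3. The count of 3 higher came without I/R+Rk2 replicate 2, 3 or 4, fits that called 11.4, 11.7 and 10.1% of all genes tested. In these fits, coagulation and complement each had 1 gene higher, as coagulation had without I/R+DMSO replicate 3 and complement without I/R+DMSO replicate 2. Coagulation kept 2 lower without I/R+Rk2 replicate 1 and had 1 lower without any other library. Beyond what the settings themselves change, the cause of these differences was not tested. PLAUR, F13B and MASP2 had at most 36 counts in any library, and 5 members were below the filter.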
